A study of Mus musculus with 45 samples.

Results

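Limb cultures exposed to 50 µM bisphenol S (BPS) for 48 h were compared with cultures exposed to 10 µM BPS for the same time. The comparison held 10 of the 45 libraries of the series, 5 at each dose, taken by their labels and not by any measured value. BPS replaces bisphenol A in plastics and thermal paper. Every library came from forelimb buds of CD1 mouse embryos at gestation day 13, kept as organ cultures in BGJb medium with ascorbic acid under oxygen-enriched gas. The protocol pools forelimbs and cultures male and female limbs together, so that a library should stand for several embryos and for all cell types of the bud. The strain field of the 5 libraries at 50 µM reads CD2 to CD6, 1 library each, against CD1 elsewhere, and they were analysed as CD1. The 5 DMSO vehicle libraries of the same time, and the 2 doses at 24 h and at 3 h, are given beside the comparison.

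Cells read the sterol content of the endoplasmic reticulum through SCAP and the INSIG proteins, and when it is low the SREBP factors are released to the nucleus, where they switch on the enzymes of cholesterol and unsaturated fatty acid synthesis, lipoprotein uptake and their own regulators. The forelimb bud at this stage is a cartilage model under a thin epidermis, in which prehypertrophic chondrocytes secrete Indian hedgehog, a ligand that carries a cholesterol group and sets the pace of growth plate differentiation. It also holds vessels, blood cells, macrophages, muscle and tendon precursors.

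Library totals were 15.99 to 22.2 M reads in genes at 50 µM and 17.6 to 20.4 M at 10 µM, where 3 reads, taken as the floor of detection, correspond to 0.135 to 0.188 CPM (reads scaled to a common library size). Levels below are CPM, and means carry the SD over 5 libraries. Tbx5, the forelimb factor, stood at 219 to 255 CPM in the 10 libraries, while the hindlimb factors Tbx4 and Pitx1 stood at 20.8 to 31.5 and 2.36 to 4.598 CPM. On the first principal component of the 2000 most variable genes, with 15.1% of their variance, the 50 µM libraries lay between 4.17 and 23.2 and the 10 µM libraries between -24.7 and -4.02. Replicate 5 at 50 µM and replicate 4 at 10 µM stood apart in Xist, the RNA of the inactive X chromosome, with 0.119 and 1.11 CPM against 439 to 1253 CPM in the other 8. They also had the highest level of Ddx3y, a Y-linked gene, within their dose (104 and 123 CPM). These values go against the mixed-sex pool that the protocol gives for every culture. Replicate numbers were not shown to pair the libraries at 48 h, and the labels do not say whether replicates were separate cultures. A p-value therefore weighs a difference against a spread of libraries that could be technical only.

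The 50 µM libraries differed from the 10 µM libraries in 152 genes, 72 higher and 80 lower. These are 0.921% of the 16505 genes tested by edgeR's quasi-likelihood test at a Benjamini-Hochberg adjusted p below 0.05, the threshold of every call below, with 0.436% called higher and 0.485% called lower. Of 34914 genes joined from the tables, 30685 had a read in the 10 libraries. The rises were small and even, with a median log2 fold change of 0.32 (50 over 10 µM), and 1 of them reached 2-fold. The falls had a median of -0.50 and 18 of them reached 2-fold. Over all genes tested the median was -0.00282 and 49% of genes lay above 0. In 504 genes (3.05%) no 50 µM library overlapped the range of the 10 µM libraries, among them 59 of the 72 that rose (1.43% of all genes were apart in that direction) and 75 of the 80 that fell (1.62%). Leaving out 1 library moved the count to 97 (50 µM replicate 3), 93 (50 µM replicate 4) or 88 (10 µM replicate 1). It was 197 (89 higher, 108 lower) without the 2 libraries with almost no Xist reads, and 117 of these were among the 152.

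**Figure D1:**
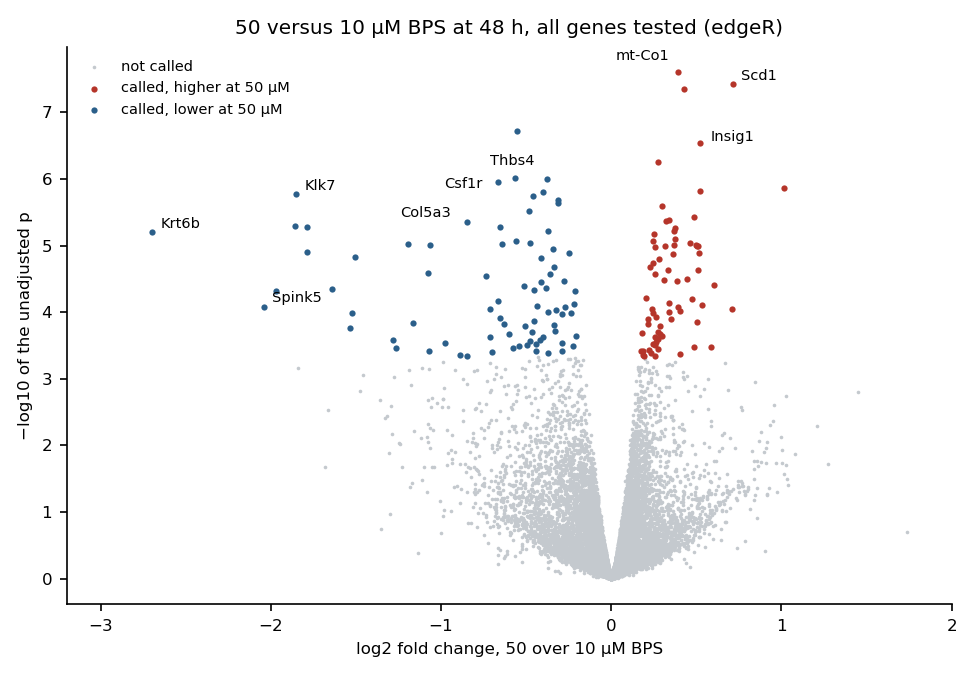
Each point is 1 of 16505 genes, with the log2 fold change of 50 over 10 µM BPS at 48 h on the x axis and −log10 of the unadjusted p of edgeR's quasi-likelihood test on the y axis. Red marks the 72 genes called higher at 50 µM and blue the 80 called lower; the rises crowd within about 1 log2 unit of 0, while the falls reach -2.70 for Krt6b.

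Enzymes of cholesterol synthesis rose together at 50 µM: 12 of the 21 list members, all tested, were called higher, 0 were called lower, and the median log2 fold change of the list was 0.38. For comparison, 0.436% of all genes tested were called higher. This list, like those below, was chosen with earlier results of these data known, so such shares are a description and not a test. Hmgcs1, which makes HMG-CoA at the head of the pathway (ENSMUSG00000093930, mm10 chr13:119690379-119708260, plus strand), had 240.9, 212, 196, 197 and 165 CPM in 50 µM replicates 1 to 5, against 136, 144, 135, 156 and 137 CPM in 10 µM replicates 1 to 5. The ranges did not overlap, and the lowest library at 50 µM was replicate 5. Its means were 202 ± 27.8 CPM at 50 µM and 142 ± 8.84 CPM at 10 µM, a log2 fold change of 0.51 ± 0.0795 (SE, adjusted p = 0.00673). Mvd, which decarboxylates mevalonate diphosphate, had 74.5, 59.2, 59.3, 61.8 and 50.1 CPM at 50 µM, against 43.2, 40.8, 41.0, 43.8 and 43.0 CPM at 10 µM. Here too each 50 µM library stood above each 10 µM library, and the log2 fold change was 0.52 ± 0.0761 (adjusted p = 0.0021).

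The rises covered both the mevalonate and the sterol part of the pathway. Fdft1 and Sqle, the squalene synthase and squalene epoxidase, rose by 0.38 and 0.37. Lss, which closes the ring system in the step before, rose by 0.51. Among the enzymes that turn lanosterol into cholesterol, Msmo1 rose by 0.53, Tm7sf2 by 0.50, Dhcr7 by 0.50, Nsdhl by 0.48, Cyp51 by 0.34 and Sc5d by 0.25. Dhcr7, whose loss causes a sterol disorder with limb malformations in humans, averaged 84.4 ± 12.4 CPM at 50 µM and 59.6 ± 3.17 CPM at 10 µM. Idi1 (0.45, adjusted p = 0.067) and Fdps (0.42, adjusted p = 0.22) did not pass, and Ebp (-0.12) and Ggps1 (-0.04) were the 2 members below 0. Of the 12 calls, 8 held when any 1 of the 10 libraries was left out. Lss was not called without 50 µM replicate 2 or 3 or without any 1 of the 10 µM libraries (adjusted p 0.0621 to 0.0943), and Sc5d not without 50 µM replicates 1 to 4 or 10 µM replicates 1 to 3, each left out alone (0.0505 to 0.141). Cyp51 was not called without 50 µM replicate 2, 3 or 4 or 10 µM replicate 1 or 4 (0.0541 to 0.0727), and Msmo1 not without 50 µM replicate 2, 3 or 4 or 10 µM replicate 4 (0.0519 to 0.0818).

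Summed over the list, the 50 µM libraries held 1765, 1624, 1537, 1540 and 1324 CPM of cholesterol synthesis transcripts in replicates 1 to 5, against 1182, 1259, 1115, 1225 and 1202 CPM at 10 µM. Each 50 µM library was above each 10 µM library, with replicate 5, one of the 2 libraries with almost no Xist reads, the lowest. Without these 2 libraries 14 of the 21 members were called. DMSO libraries held 1109 to 1212 CPM. Tested against DMSO, 15 members were called higher at 50 µM and 0 at 10 µM, with list medians of 0.43 and 0.06. Both contrasts share libraries with the comparison of the doses.

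The stretch upstream of these genes is shown because the members moved together and because SREBP factors are known to act with a CCAAT-binding factor there. In the 250 bases before the RefSeq start (GRCm38.p6), CCAAT was found on either strand in 15 of the 16 list genes with a promoter in the table, against 37.5% of all 27025 promoters and 39.7% of the 11729 promoters of genes tested. The full sterol element TCACNCCAC was found in 1 of the 16 (1.22% of all promoters, 1.32% of those of genes tested). CACGTG was found in 3 of the 16 (6.86% and 9.54%). Fdps, Fdft1 and Sqle are among the 5 list genes with no entry. Hmgcs1 is shown for its sterol element with CCAAT on both sides, and Sc5d as a list gene with CACGTG. Insig1, described next, joins both as a regulator with CACGTG. Capitals mark matches to the motifs on either strand, and no 2 matches overlap. The windows are chr13:119690101-119690350 (plus strand), chr9:42264301-42264550 (minus strand) and chr5:28071162-28071411 (plus strand). A match is a run of letters and not a measured binding site.
Hmgcs1: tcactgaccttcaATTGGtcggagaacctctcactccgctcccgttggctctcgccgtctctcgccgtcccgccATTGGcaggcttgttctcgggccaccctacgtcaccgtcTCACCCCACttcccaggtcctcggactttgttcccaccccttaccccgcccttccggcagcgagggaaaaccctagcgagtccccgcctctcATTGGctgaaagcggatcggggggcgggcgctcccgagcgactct
Sc5d: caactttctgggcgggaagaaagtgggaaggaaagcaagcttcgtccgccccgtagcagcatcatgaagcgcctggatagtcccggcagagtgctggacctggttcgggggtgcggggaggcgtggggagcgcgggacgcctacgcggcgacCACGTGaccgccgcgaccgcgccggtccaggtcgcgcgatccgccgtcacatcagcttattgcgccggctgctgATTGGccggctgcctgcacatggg
Insig1: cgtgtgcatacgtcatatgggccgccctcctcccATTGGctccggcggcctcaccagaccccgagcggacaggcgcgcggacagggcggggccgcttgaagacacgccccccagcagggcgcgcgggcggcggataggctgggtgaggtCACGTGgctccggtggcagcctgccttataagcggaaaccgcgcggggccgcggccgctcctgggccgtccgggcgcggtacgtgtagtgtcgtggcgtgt

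Regulators of SREBP activity and of LDL uptake rose in 6 of 16 cases and fell in 0, with a list median of 0.09. Insig1, which holds SREBP in the endoplasmic reticulum and is itself an SREBP target, had 89.5, 77.4, 82.5, 77.1 and 64.6 CPM at 50 µM, against 55.8, 58.2, 50.5, 55.7 and 52.0 CPM at 10 µM. Its groups did not overlap, and its means were 78.2 ± 9.11 CPM at 50 µM and 54.4 ± 3.12 CPM at 10 µM (0.52 ± 0.0684, adjusted p = 0.000963). The factor genes themselves rose less, Srebf2 by 0.22 ± 0.0469 (adjusted p = 0.0242) and Srebf1 by 0.19 ± 0.0456 (adjusted p = 0.0491), and the sterol carrier gene Stard4 by 0.28 (adjusted p = 0.0423). Genes of sterol efflux and lysosomal export did not pass, with Abca1 at -0.02, Abcg1 at -0.10 and Npc1 at 0.03. Without 50 µM replicate 2 or 4, or 10 µM replicate 1 or 5, the list had 3 calls, Insig1 among them, which was called in every left-out fit. Srebf1 was lost in 7 of the 10 left-out fits (all but those without 50 µM replicate 1 or 5 or 10 µM replicate 3; adjusted p 0.0572 to 0.15). Srebf2 was lost in 5 (without 50 µM replicate 1, 2 or 4 or 10 µM replicate 1 or 5; 0.0668 to 0.114), and Stard4 in 8 (all but those without 50 µM replicate 5 or 10 µM replicate 4; 0.0582 to 0.164).

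Fatty acid synthesis and desaturation genes rose in 6 of 15 tested cases and fell in 0, with a median of 0.25. Scd1, the desaturase that makes oleate (mm10 chr19:44394451-44407709, minus strand), had 175, 152, 146, 144 and 121 CPM at 50 µM, against 84.5, 94.7, 86.2, 93.9 and 90.0 CPM at 10 µM. Every 50 µM library stood above every 10 µM library, and the log2 fold change was 0.71 ± 0.0724 (adjusted p = 0.000244). Scd2, a close relative with which Scd1 could share reads, averaged 1651 ± 145 CPM at 50 µM and 1325 ± 82.2 CPM at 10 µM (0.32 ± 0.0542, adjusted p = 0.00389). Fads1 and Fads2, desaturases of polyunsaturated fatty acids, rose by 0.27 and 0.25, Elovl6, an elongase, by 0.26, and Acaca, the acetyl-CoA carboxylase, by 0.30. All 6 calls held without any 1 of the 10 libraries. Fasn, the fatty acid synthase, was at 0.16 and Acly at 0.15, and neither passed (adjusted p = 0.12 and 0.40). Genes of lipid droplets and fatty acid use had 0 calls of 19 tested, with 15 below 0 and a median of -0.24, among them Plin2, the coat protein of droplets, at -0.29 (adjusted p = 0.0954). The list had 1 call, lower, without 50 µM replicate 2, 50 µM replicate 5 or 10 µM replicate 4, 2 without both libraries with almost no Xist reads, 2 with DESeq2 and 3 with no filter.

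**Figure D2:**
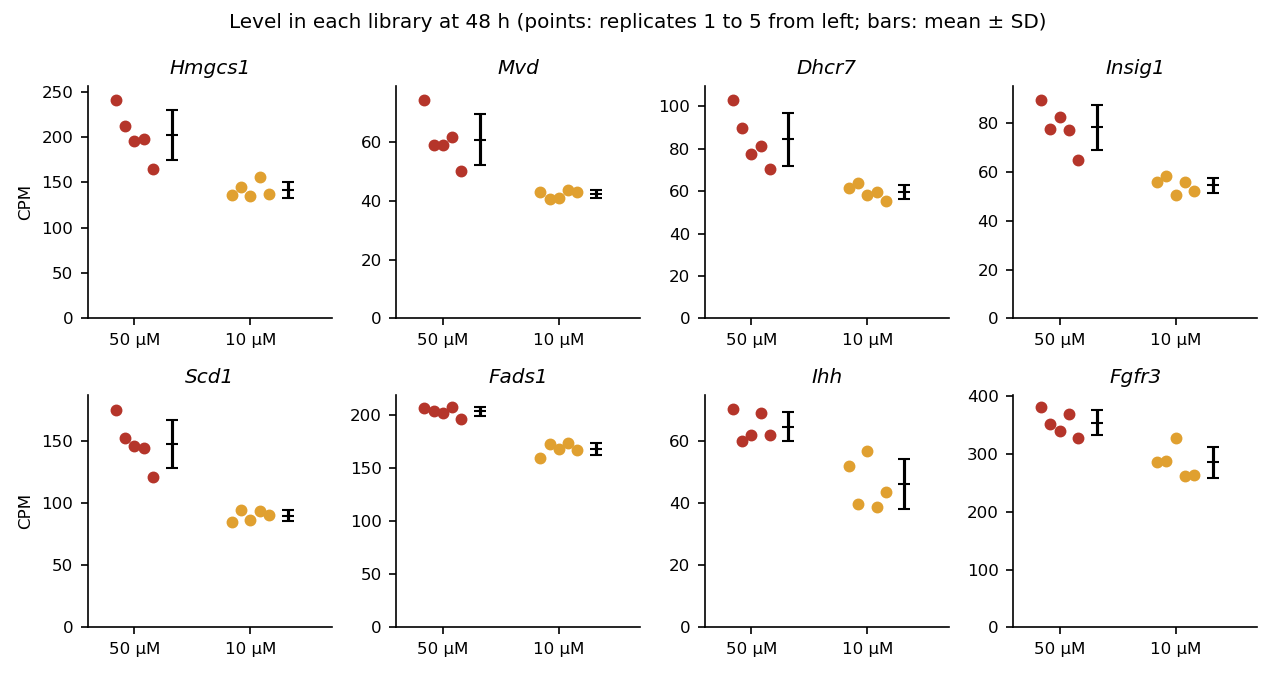
CPM in each library at 48 h for 6 sterol and fatty acid genes and 2 growth plate genes, 50 µM left of 10 µM; points are replicates 1 to 5 from left and bars show mean ± SD (n = 5). For Scd1 and Insig1 the dose groups lie clear of each other, while for Fgfr3 the lowest 50 µM library (327 CPM) falls just below the highest 10 µM library (328 CPM).

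Few skeletal differentiation genes passed the test. Of 28 cartilage matrix and early chondrocyte genes 1 was called higher and 1 lower (median -0.05), of 20 hypertrophic chondrocyte genes 1 higher (median -0.05), and of 19 osteoblast and bone matrix genes 0 (median 0.02). Fgfr3, a receptor that restrains chondrocyte growth, had 380, 352, 340, 369 and 327 CPM at 50 µM, against 286, 287, 328, 263 and 263 CPM at 10 µM. The groups met at 1 library on each side, and the rise of 0.31 ± 0.0576 (adjusted p = 0.00872) held in every left-out fit. Ihh, the gene of Indian hedgehog (mm10 chr1:74945315-74951672, minus strand), had 70.3, 60.0, 61.9, 69.0 and 62.0 CPM at 50 µM, against 52.0, 39.8, 56.9, 38.7 and 43.4 CPM at 10 µM. Its groups did not overlap (log2 fold change 0.49 ± 0.101, adjusted p = 0.0408). The call of Ihh was lost without 50 µM replicate 1, 3, 4 or 5 or 10 µM replicate 2, 4 or 5 (adjusted p 0.0563 to 0.0973), and without both libraries with almost no Xist reads (0.44, adjusted p = 0.0805).

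Ptch1, the hedgehog receptor and a standard readout of the pathway, averaged 278 ± 16.7 CPM at 50 µM and 252 ± 12.8 CPM at 10 µM and did not pass (0.14 ± 0.0471, adjusted p = 0.205). Ihh was the 1 call among 13 hedgehog genes. Col2a1, the main collagen of cartilage, averaged 10320 ± 551 CPM at 50 µM and 10400 ± 476 CPM at 10 µM (-0.01 ± 0.0462, adjusted p = 0.951). Acan (-0.02), Sox9 (0.09), Runx2 (0.07) and Sp7 (0.01), which mark cartilage matrix, chondrocyte identity and osteoblast commitment, did not pass, and the sign of Col2a1, Acan and Sp7 changed with the library left out. Col10a1, the collagen of hypertrophic cartilage, had 82.8 to 149 CPM at 50 µM and 79.4 to 259 CPM at 10 µM, and its value of -0.51 ± 0.312 did not pass (adjusted p = 0.613). Ucma, a matrix protein of cartilage, averaged 2.05 ± 0.354 CPM at 50 µM and 3.79 ± 1.08 CPM at 10 µM, a fall of 0.89 ± 0.213 on the log2 scale (adjusted p = 0.0483). That call was lost in 8 of the 10 left-out fits, namely without any 50 µM library and without 10 µM replicate 1, 4 or 5 (0.0582 to 0.126). Xylt1, which starts glycosaminoglycan chains, rose by 0.25 (adjusted p = 0.0184) as 1 of 27 genes of that synthesis, and was lost without 50 µM replicate 1, 2 or 4 or 10 µM replicate 1 or 2 (0.0619 to 0.0921). Dkk3, of the Dickkopf family, rose by 0.23 (adjusted p = 0.0064) as 1 of 23 Wnt genes.

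Tendon and joint genes held 3 falls and 0 rises among 19. Thbs4, a matrix thrombospondin of tendon (mm10 chr13:92751590-92794818, minus strand), had 47.0, 49.6, 51.9, 55.1 and 60.1 CPM at 50 µM, against 72.3, 68.9, 87.9, 75.1 and 85.4 CPM at 10 µM. All 50 µM libraries were lower than all 10 µM libraries (-0.56 ± 0.0767, adjusted p = 0.00202), but the call was lost in 1 fit over all 45 libraries (adjusted p = 0.281). Tnc, tenascin C, averaged 210 ± 14.3 CPM at 50 µM and 273 ± 19.95 CPM at 10 µM (-0.38 ± 0.0549, adjusted p = 0.00202), and Osr2, a transcription factor of joint tissue, fell by 0.27 (adjusted p = 0.0168). Osr2 was not called without 50 µM replicate 1 or 2 or 10 µM replicate 1 (0.0538 to 0.0627). The list as a whole had a median of -0.06, and Scx, the tendon lineage factor, stood at 0.02. Cilp, a cartilage intermediate layer protein outside the lists, fell by 0.56 (adjusted p = 0.00389) and is named here after its value was seen.

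**Figure D3:**
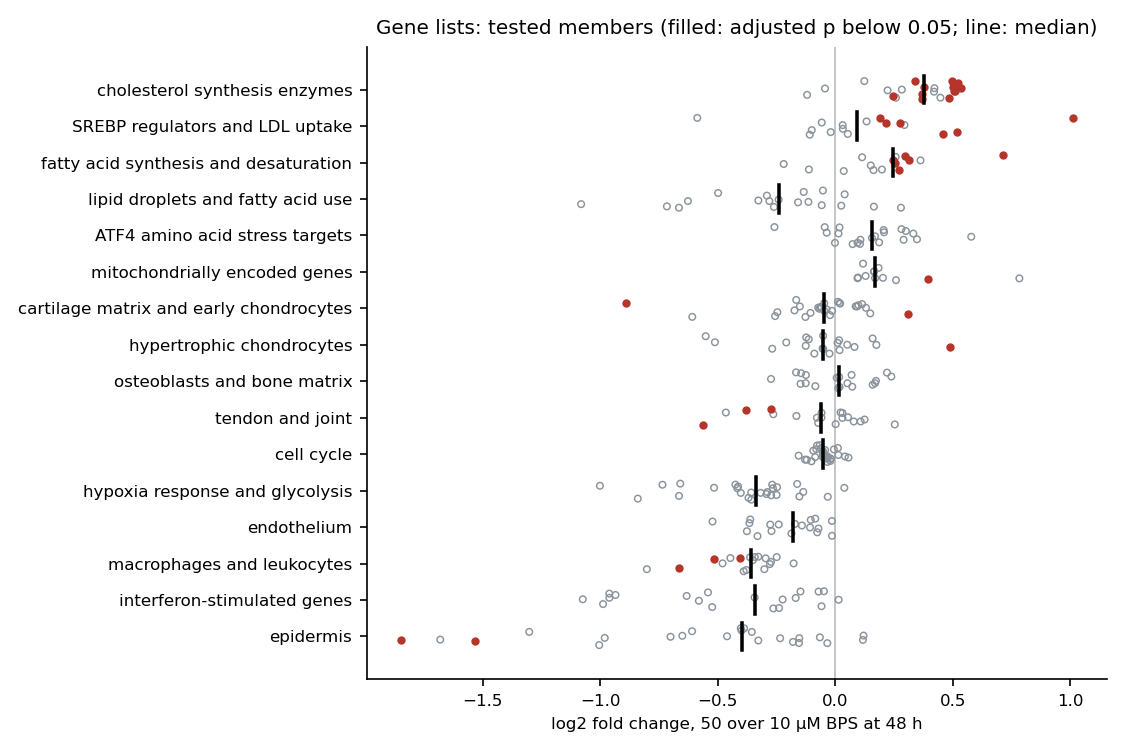
Log2 fold change of 50 over 10 µM BPS at 48 h for the tested members of 16 gene lists, 1 point a gene; filled points have an adjusted p below 0.05 and black lines are list medians. Calls gather on the right in the 3 sterol and fatty acid lists, while the epidermal, macrophage, hypoxia and interferon lists lie left of 0 with few or no calls.

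The largest falls included 8 genes known from keratinocytes, a grouping made after their values were seen, of which Klk7 and Sprr1a are in the epidermal list. Among the 12 largest with a mean of at least 1 CPM these were Krt6b and Krt16, keratins of activated epidermis, Klk7 and Spink5, a protease of skin shedding and its inhibitor, Il1f9 and Il1f5, cytokines of the IL-36 family, and Sprr1a and Csta1, proteins of the cornified layer. Krt6b (mm10 chr15:101676023-101680287, minus strand) had 1.603, 1.09, 0.646, 1.23 and 2.37 CPM at 50 µM, against 7.62, 7.54, 4.80, 13.3 and 11.6 CPM at 10 µM. The highest 50 µM library stood below the lowest 10 µM library (-2.70 ± 0.341, adjusted p = 0.0036). Klk7 had 0.740, 1.23, 0.323, 0.613 and 1.13 CPM at 50 µM, against 2.87, 2.67, 2.34, 3.99 and 2.92 CPM at 10 µM (-1.85 ± 0.280, adjusted p = 0.0021). Krt16, the most abundant of them, had 8.63, 14.5, 10.3, 14.1 and 17.7 CPM at 50 µM, against 25.2, 39.7, 25.0, 40.3 and 28.7 CPM at 10 µM (-1.28 ± 0.222, adjusted p = 0.0359). Neither gene overlapped between the doses. Spink5 fell by 2.04, Il1f9 by 1.86, Csta1 by 1.79, Sprr1a by 1.54 and Il1f5 by 1.52. Of the 12 genes not put in this grouping, Urah fell by 1.97, Fam25c by 1.79, Dnase1l3 by 1.51 and Ces2g by 1.27. Most of these genes lay near 1 CPM, and Krt6b, Krt16 and Csta1 have close relatives that could share their reads, as Urah could with an overlapping gene. A gene that low can pass the filter through the 10 µM libraries alone.

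Calls of Krt6b, Klk7, Il1f9, Csta1, Urah, Fam25c and Dnase1l3 held in every left-out fit, and that of Il1f9 was lost in 1 fit over all 45 libraries (adjusted p = 0.0814). Those of Krt16 (adjusted p up to 0.0943) were lost without 50 µM replicate 2, 3 or 4 or 10 µM replicate 2, 4 or 5, those of Sprr1a (up to 0.0849) without 50 µM replicate 2, 4 or 5 or 10 µM replicate 1, 4 or 5, those of Spink5 (up to 0.0776) without 50 µM replicate 2, 3 or 4 or 10 µM replicate 1 or 2, and those of Il1f5 (up to 0.0795) without 50 µM replicate 3 or 4 or 10 µM replicate 1 or 2. Ces2g kept its call without 10 µM replicate 3 or 4 only, and 10 µM replicate 2, at 6.61 CPM against 2.07 to 2.74 CPM in the other 10 µM libraries, moved its log2 fold change to -0.84 when left out (adjusted p = 0.115).

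The epidermal list of 23 genes gave 2 falls, Klk7 and Sprr1a, and 0 rises, with 21 members below 0 and a median of -0.40. It gave 1 fall without 50 µM replicate 2, 4 or 5, without 10 µM replicate 1 or 4, and without both libraries with almost no Xist reads. Keratins of the basal and suprabasal layers did not pass, with Krt5 at -0.15, Krt14 at -0.39, Krt10 at -0.40 and Krt1 at -0.46, and Trp63, the factor of epidermal identity, was at 0.12. Summed, the list had 801 to 1165 CPM at 50 µM and 779 to 1704 CPM at 10 µM, so the groups overlapped, with 10 µM replicates 2 and 4 highest. In whole limb buds, fewer cells of a type and less RNA per cell cannot be told apart. For Krt6b, Klk7 and Krt16 the mean of the DMSO libraries lay between those of the doses, and single DMSO libraries fell within the ranges of both doses for Krt6b and Krt16 and of the 50 µM libraries for Klk7. Krt6b averaged 4.80 ± 2.69 CPM in DMSO, 8.97 ± 3.42 CPM at 10 µM and 1.39 ± 0.648 CPM at 50 µM. Klk7 averaged 1.38 ± 0.490, 2.96 ± 0.622 and 0.806 ± 0.373 CPM in the same order of dose, and Krt16 averaged 19.7 ± 6.56, 31.8 ± 7.66 and 13.0 ± 3.60 CPM. Against DMSO neither dose was called for them: Krt6b was at 0.91 at 10 µM (adjusted p = 1.0) and at -1.78 at 50 µM (adjusted p = 0.115). The list median against DMSO was 0.36 at 10 µM and -0.05 at 50 µM.

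**Figure D4:**
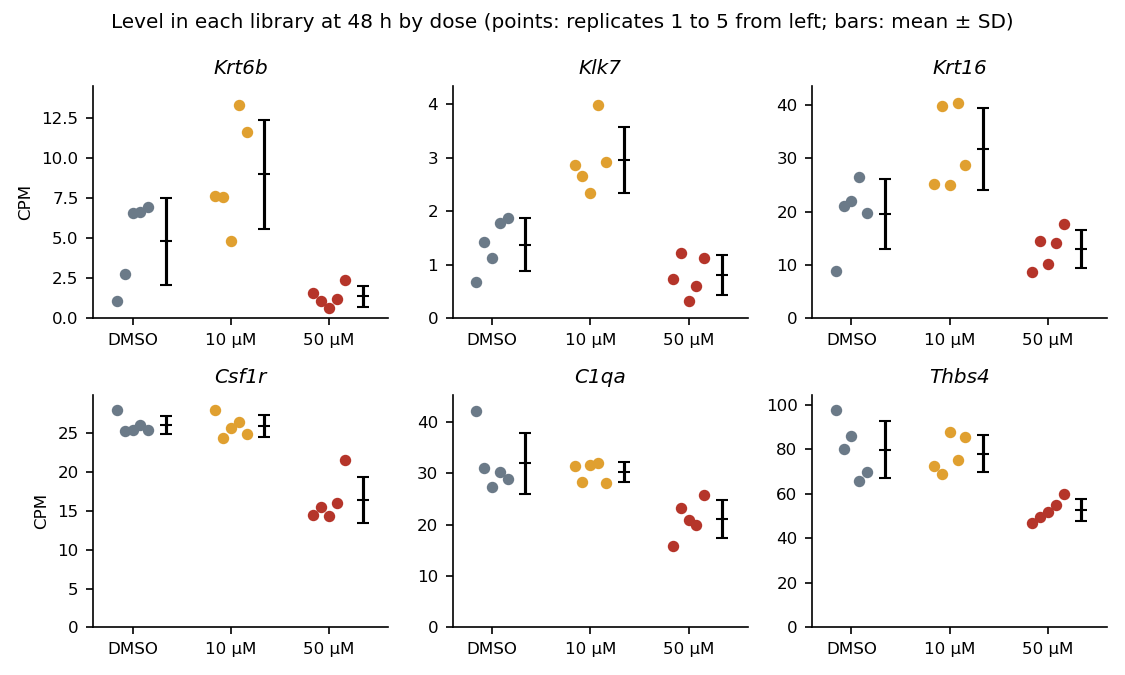
CPM in each library at 48 h in DMSO, 10 µM and 50 µM BPS, with replicates 1 to 5 from left and bars for mean ± SD (n = 5). Krt6b, Klk7 and Krt16 had their highest mean at 10 µM, while Csf1r, C1qa and Thbs4 had similar means in DMSO and at 10 µM and lower levels at 50 µM.

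Macrophage and leukocyte genes were lower at 50 µM in all 18 cases by sign, with a median of -0.36, and 3 of them passed. Csf1r, the receptor that macrophages need to survive, had 14.4, 15.5, 14.3, 16.1 and 21.5 CPM at 50 µM, against 28.0, 24.4, 25.6, 26.5 and 25.0 CPM at 10 µM. The groups did not overlap and 50 µM replicate 5 stood nearest to the 10 µM libraries (-0.66 ± 0.0975, adjusted p = 0.00202). An overlapping gene could share its reads. C1qa, a chain of the complement protein C1q, had 15.9, 23.3, 21.0, 19.98 and 25.7 CPM at 50 µM, against 31.5, 28.2, 31.6, 31.9 and 28.1 CPM at 10 µM (-0.52 ± 0.0977, adjusted p = 0.00993, and 0.0682 in 1 fit over all 45 libraries). C1qc fell by 0.40 (adjusted p = 0.0331), a call lost without 50 µM replicate 1, 3 or 4 or 10 µM replicate 1, 2 or 4 (0.0563 to 0.108). It was also lost in 1 fit over all 45 libraries (0.167), where the list had 1 call. With 1 library left out the list had 2 to 5 calls, 2 without 50 µM replicate 1, 3 or 4 and 5 without 50 µM replicate 5. It had 6 without both libraries with almost no Xist reads. Its summed level was 212 to 322 CPM at 50 µM and 316 to 353 CPM at 10 µM. The one 50 µM library above the lowest at 10 µM was replicate 5, and DMSO libraries held 314 to 419 CPM. Named after their values were seen, the scavenger receptor genes Msr1 and Stab1 fell by 1.08 and 0.55.

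The endothelial, interferon and hypoxia lists lay mostly below 0, with 0 calls in the fit of all 10 libraries. Not all lists of other cells did so. Skeletal muscle genes lay above 0 in 21 of 28 tested cases (median 0.05), Schwann cell and glia genes in 6 of 13 and melanocyte genes in 2 of 4, also with 0 calls. Endothelial genes lay below 0 in 18 of 18 cases (median -0.18), with Pecam1 at -0.38 (adjusted p = 0.0707), and their summed level was 359 to 430 CPM at 50 µM and 410 to 504 CPM at 10 µM. The endothelial list had 1, 2 and 1 calls without 50 µM replicate 2, 10 µM replicate 3 and 10 µM replicate 5, 2 with DESeq2 and 5 with no filter on low counts. Interferon-stimulated genes lay below 0 in 18 of 19 cases (median -0.34), and their summed level was 127 to 137 CPM at 50 µM and 142 to 167 CPM at 10 µM, with Isg15 at -1.07 (adjusted p = 0.104). They had 1 call without 50 µM replicate 5, 2 with DESeq2 and 3 with no filter. Cmpk2 (-0.57), Zc3hav1 (-0.64) and Tmem173 (-0.47), outside the interferon list and named after their values were seen, were called lower. Hypoxia and glycolysis genes lay below 0 in 25 of 26 cases (median -0.34), but their summed level differed more between replicates than between doses. It was 2238, 3119, 2316, 2296 and 2415 CPM at 50 µM, against 2710, 2095, 4450, 3448 and 2519 CPM at 10 µM, so that 10 µM replicates 3 and 4 were high and the groups overlapped. Ldha, the lactate dehydrogenase subunit, was at -0.41 (adjusted p = 0.360), and the list had 1 call with DESeq2 and 1 with no filter. The part of these lists in the other differences was not tested.

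Mitochondrially encoded genes lay above 0 in 12 of 12 tested cases (median 0.17), and 1 passed. That gene, mt-Co1, of cytochrome oxidase (position 5328 to 6872 of the mitochondrial genome), had 7298, 6576, 6345, 7006 and 6599 CPM at 50 µM, against 5027, 5290, 5027, 4936 and 5417 CPM at 10 µM. No library of one dose reached the range of the other (0.40 ± 0.0455, adjusted p = 0.000244). The mitochondrial ribosomal RNA mt-Rnr2, which poly-A selection captures in part, rose by 0.45 (adjusted p = 0.00843).

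Single calls in further lists were Klf2, a factor induced by flow in endothelium (-0.37, adjusted p = 0.00356, and 0.0692 in 1 fit over all 45 libraries), among 22 immediate early factors, Tfrc, the transferrin receptor (-0.31, adjusted p = 0.00226), among 11 erythroid genes, and Aldh1a3, a retinoic acid-making enzyme (-0.48, adjusted p = 0.00389), among 16 retinoid genes. Timp1, a protease inhibitor, fell by 0.44 (adjusted p = 0.0168) as 1 of 18 protease genes, but not without 50 µM replicate 1 (0.0576) or 10 µM replicate 1 (0.0605), and it shares its place with another gene. Of 8 clustered histone genes 2 fell, Hist1h1c by 0.48 (adjusted p = 0.00274) and Hist1h2bc by 0.44 (adjusted p = 0.0389). Hist1h2bc was lost without 50 µM replicate 1, 2, 4 or 5 or 10 µM replicate 1, 2 or 4 (0.0589 to 0.125). In the fit of all 10 libraries stress lists had 0 calls: ATF4 targets of amino acid stress had a median of 0.16 with 17 of 21 above 0, and endoplasmic reticulum chaperones 0.01 with Hspa5, the chaperone BiP, at 0.01. The ATF4 list had 2 calls with no filter, and heat shock genes had 1 lower without 10 µM replicate 4. Its 0 covers list members only. Cth (0.59), Atf5 (0.39) and Slc1a5 (0.29), outside the ATF4 list and named after their values were seen, were called higher. Among 8 targets of the aryl hydrocarbon receptor 0 passed, with Cyp1a1 at 6.01 ± 1.24 CPM at 50 µM and 5.55 ± 0.851 CPM at 10 µM (0.11 ± 0.152, adjusted p = 0.859). Esr1, the estrogen receptor gene, stood near 1 CPM at both doses (0.944 ± 0.226 CPM at 50 µM, 1.14 ± 0.359 CPM at 10 µM, adjusted p = 0.785). Cdkn1a, a p53 target, was at -0.18 (adjusted p = 0.216, but 0.0122 with no filter and 0.00491 without both libraries with almost no Xist reads), and cell cycle genes had 0 calls of 30 and a median of -0.05.

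Among the largest rises outside the lists were Mb, the oxygen-binding protein of muscle (0.71, adjusted p = 0.0172), Podnl1, a small matrix proteoglycan (0.60, adjusted p = 0.00953), Cth, which makes cysteine (0.59, adjusted p = 0.0412), Cldn11, a tight junction protein (0.51, adjusted p = 0.00447), and Ccbe1, a matrix protein of lymphatic growth (0.51, adjusted p = 0.00389, and 0.0728 in 1 fit over all 45 libraries). Mb had 6.35 to 8.47 CPM at 50 µM and 3.74 to 6.38 CPM at 10 µM, and Cth 7.10 to 11.1 CPM at 50 µM and 4.92 to 7.62 CPM at 10 µM, so both overlapped, and both overlap another gene on the chromosome. Without 50 µM replicate 3 (0.0557) or 10 µM replicate 1 (0.0597) Mb did not pass. Cth did not pass without 50 µM replicate 1, 2, 4 or 5 or 10 µM replicate 2, 3 or 4 (0.0671 to 0.14). Without both libraries with almost no Xist reads, Podnl1 was at 0.50 (adjusted p = 0.053).

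At 24 h the same 2 doses, in 10 other libraries, gave 0 calls of 16587 genes by edgeR without a replicate block (923 genes, 5.56%, at an unadjusted p below 0.05), 0 by limma-voom and 41 by DESeq2. No label says that replicate numbers pair the libraries. At this time same-numbered libraries of the doses correlated best with each other (0.151 to 0.31), which is a hint from the data only. With the replicate number as a block edgeR called 181 genes (1.09%), 98 higher (0.591%) and 83 lower (0.5%). Left out alone, 50 µM replicates 2 and 5 gave 2 and 5 calls without the block, and 10 µM replicates 2, 3 and 5 gave 2, 12 and 10. At 3 h 0 of 16702 genes were called (737, or 4.41%, at an unadjusted p below 0.05), 0 by limma-voom and 7 by DESeq2. There 50 µM replicates 2 and 3 gave 1 and 2 calls when left out, and 10 µM replicates 2 and 3 also gave 1 and 2.

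The genes that rose at 48 h already leaned upward at 24 h. All 72 had a positive log2 fold change there, against 50.5% of all genes, with a median of 0.20 beside 0.32 at 48 h, and 46 had an unadjusted p below 0.05 in that direction, against 2.38% of all genes. Of the 98 genes called higher at 24 h with the block, 37 were among the 72. The 80 genes that fell had 67 tested members at 24 h. Of these, 63 (94%) lay below 0, against 49.5% of all genes, with a median of -0.21, and 20 were among the 83 called lower with the block. At 3 h 63 of the 72 lay above 0 (median 0.07), against 50.8% of all genes. Of the genes that fell, 44 of 68 tested (64.7%) lay below 0 (median -0.05), against 49.2%. At an unadjusted p below 0.05 in that direction were 11 and 7 of them, against 2.34% and 2.08% of all genes. Hmgcs1 was at 0.37 ± 0.0608 at 24 h (adjusted p = 0.0511 without the block, 3.96e-07 with it) and Scd1 at 0.54 ± 0.0854 (0.055 and 1.75e-08). Cholesterol synthesis genes were called with the block in 13 of 21 cases, fatty acid genes in 7 of 15 and ATF4 targets in 4 of 21, all higher, and lipid droplet genes in 3 of 18 and macrophage genes in 6 of 18, all lower, with Csf1r at -0.48 ± 0.0973 (0.111 without the block and 0.00424 with it). The 48 h calls given above are without a block, so these calls do not compare with them. With a block the 48 h fit called 328 genes. Among them were 15 cholesterol synthesis genes, 7 fatty acid genes and 3 ATF4 targets, all higher, and 3 lipid droplet and 5 macrophage genes, all lower. Thbs4 (-0.14) and Tnc (-0.01) were not called at 24 h in either fit. Krt16 was at 0.06 and Sprr1a at 0.02 at 24 h, but at -1.02 ± 0.410 and -1.02 ± 0.426 at 3 h (adjusted p = 0.999 for both), while Krt6b, Klk7 and Spink5 were too low at 24 h to be tested.

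The change of the dose difference between 24 and 48 h was tested as an interaction over both times, and 0 of 17423 genes passed by edgeR, limma-voom or DESeq2, with 423 at an unadjusted p below 0.05. The smallest adjusted p was 0.516, for Epgn, a growth factor of the EGF family, whose log2 fold change was -1.64 at 48 h and 0.76 at 24 h. A gene called at 48 h and not at 24 h was therefore not shown to differ between the times.

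**Figure D5:**
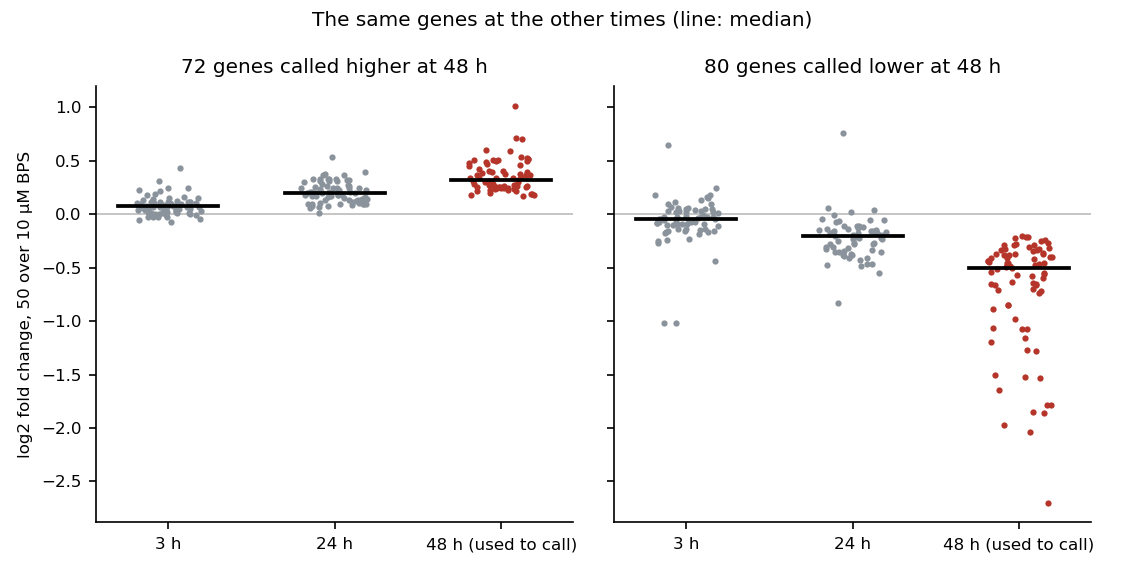
Log2 fold change of 50 over 10 µM BPS at 3, 24 and 48 h for the 72 genes called higher (left) and the 80 called lower (right) at 48 h, 1 point a gene and black lines for medians; the 48 h values chose the genes. Medians of the left panel were 0.07, 0.20 and 0.32, and those of the right panel -0.05, -0.21 and -0.50, with 12 genes at 3 h and 13 at 24 h too low to test. The right panel thus holds fewer genes at the earlier times. Genes of that panel tested at 24 h had a 48 h median of -0.454, and those tested at 3 h had -0.457.

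Against DMSO at 48 h, 50 µM BPS gave 167 calls of 16663 genes (1%), 80 higher and 87 lower, and 10 µM BPS gave 0 of 16725 by edgeR, DESeq2 and limma-voom, with 438 genes at an unadjusted p below 0.05. These contrasts share libraries with the comparison of the doses, so their values are set beside it and not counted as support. For 50 µM the count was 70, 65, 66 and 55 without 50 µM replicates 1 to 4, and 279, 75 and 76 without DMSO replicates 1, 2 and 4. Scd1 was at 0.92 at 50 µM and 0.21 at 10 µM against DMSO, Csf1r at -0.67 and -0.00153, Ihh at 0.63 and 0.14, and Thbs4 at -0.59 and -0.03.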

How the data were processed

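Per the labels' protocols, poly-A RNA of pooled forelimb cultures was primed with random hexamers and sequenced after PCR. Whether strand was kept is not stated, so overlapping genes may share reads. Build mm10, STAR 2.5 and HTSeq 0.6.1 are among the names in the submitters' processing notes, with CASAVA 1.8 and DESeq2. The sources used here do not give the gene models counted.

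The raw read counts per gene and library deposited by the authors were the only values used, and the tables held 0 columns of other samples. The authors' FPKM, scaled counts, fold changes and p-values were not used. Tables were joined by gene identifier. Control counts given in a pair of tables differed in 0 of 435225 cases. Genes missing from a table were set to 0 in its libraries. A control library had at most 1 read of a gene listed in only 1 of its tables. For the BPS libraries this could not be checked, but the smallest total of a listed gene in a table was 2 reads. No pair of libraries agreed within sampling noise (chi-square per degree of freedom at least 4.92). Floors cover counting error only.

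Every contrast was fitted to its own 10 libraries (the interaction to 20) with edgeR 4.0.16 in R 4.3.3 (two-sided quasi-likelihood test, TMM scaling, filterByExpr, robust dispersion), with Benjamini-Hochberg adjustment over all genes tested. The SE of a log2 fold change came from its size and the F statistic. CPM used TMM factors over 45 libraries. DESeq2 1.42.0, limma 3.58.1 (voom), RLE scaling, no filter, a replicate block, 1 fit of all libraries and leaving out libraries were alternatives, as was, chosen after seeing the data, leaving out the 2 libraries with almost no Xist reads. Same-numbered libraries of the doses at 24 h deviated together from their group means (correlations 0.151 to 0.31). The tests were tested on simulated data.

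Members and the 39 lists were chosen with earlier results of these data known. Genes named are the 12 largest rises and 12 largest falls called with a mean of at least 1 CPM, up to 3 members of each list by adjusted p and a panel of 15 genes, and list members or others named for contrast; some genes the rule takes are not reported here. Sequences are from RefSeq GRCm38.p6, the assembly of mm10.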

Additional observations from a re-analysis of the deposited data

Results flagged for a closer look

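Among the named genes, the highest or lowest of 5 libraries stood far from the other 4 in 8 of 134 gene and dose groups, where chance gives about 1 in 20. At 50 µM, Csf1r was at 21.5 CPM in replicate 5, against 14.3 to 16.1 CPM in the others. Klf2 was at 70.1 CPM in 50 µM replicate 4 (61.8 to 63.3 in the others), Tfrc at 111 CPM in 50 µM replicate 2 (93.6 to 98.6) and Col2a1 at 9353 CPM in 50 µM replicate 3 (10430 to 10740). At 10 µM, Aldh1a3 was at 19.4 CPM in replicate 3 (22.3 to 23.1 in the others). Lss was at 60.9 CPM in 10 µM replicate 4 (52.8 to 55.1), Esr1 at 1.77 CPM in 10 µM replicate 4 (0.872 to 1.05) and Ces2g at 6.61 CPM in 10 µM replicate 2 (2.07 to 2.74). The 2 libraries with almost no Xist reads held 3 of the 8.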

How the results depend on the processing

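All 152 genes kept their direction in each of the 17 alternatives. The 48 h count was 366 with DESeq2, 469 with no filter and 328 with a replicate block (149 higher, 179 lower, 149 of them among the 152), and 88 to 203 with a library left out. At 48 h the correlations of same-numbered libraries were 0.21, 0.132, 0.239, -0.0459 and 0.0273, and 3 of 5 correlated best with their own number, which is a hint from the data only. At 24 h the count was 2 with RLE scaling, 41 with DESeq2, 41 with no filter, 181 with the replicate block, 10 in 1 fit of all libraries and 0 to 12 with a library left out. At 3 h it was 7 with DESeq2, 13 with no filter, 1 in 1 fit of all libraries and 0 to 2 with a library left out. For 50 µM against DMSO it was 462 with DESeq2, 256 with no filter, 70 with a replicate block, 477 in 1 fit of all libraries and 55 to 279 with a library left out. The counts for 10 µM against DMSO and for the interaction were 0 in every setting. The cause of these differences was not tested.

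Of 67 named genes followed, 56 were called, and 35 of these held in every left-out fit. Calls were lost for 15 in 1 fit over all 45 libraries (adjusted p 0.0673 to 0.38), for 8 with limma-voom (0.0588 to 0.117) and for 9 without the 2 libraries with almost no Xist reads (0.052 to 0.105). With the replicate block at 48 h, lists with 0 calls had 3 (endothelium, lower), 1 (interferon, lower), 1 (hypoxia, lower), 3 (lipid droplets, lower) and 3 (ATF4 targets, higher). Genes that changed sign were uncalled in each fit that did so. With a library left out, Sp7 ran over -0.0512 to 0.0727 (-0.0358, -0.00423 and -0.00749 in between), Hspa5 over -0.0207 to 0.0307 (-0.0154 in between), Cyp1a1 over -0.00585 to 0.175, Col2a1 over -0.0394 to 0.0216 (0.00512 in between) and Acan over -0.038 to 0.0177. Without the 2 libraries with almost no Xist reads, Sp7 was at -0.0776, Hspa5 at -0.00285 and Cyp1a1 at -0.0123. At 15.99 to 22.2 M reads, genes near 1 CPM rest on few reads.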
